A study of Rattus norvegicus with 16 samples.

Results

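Insulin-like growth factors (IGFs), their receptors and their binding proteins were examined in rat kidney cells kept at normal or acidic pH. The set holds 10 genes, Igf1, Igf2, Igf1r, Igf2r, Igfbp2, Igfbp3, Igfbp4, Igfbp5, Igfbp6 and Igfbp7, and all 10 were found by their symbol among the 32623 genes of the count table. The study asked how extracellular acidosis changes gene expression in epithelial cells and fibroblasts that share a medium. NRK-52E is an established epithelial line and NRK-49F an established fibroblast line, both from normal rat kidney, so each cell type is represented by a single line. NRK-52E cells grew on permeable filter inserts, with pores that the study's methods describe as too small for cells to pass, placed above NRK-49F cells in the wells of a plate. Poly(A)-enriched RNA of each line was sequenced in 4 libraries for each of the 4 groups.

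All groups were held without serum for 24 h and then exposed in co-culture for 48 h. The groups were NRK-52E cells at pH 7.4 (libraries N1, N2, N5 and N6), NRK-52E cells at pH 6.0 (N3, N4, N7 and N8), NRK-49F cells at pH 7.4 (N9, N10, N13 and N14) and NRK-49F cells at pH 6.0 (N11, N12, N15 and N16). Cell line and growth support go together in this design, so a difference between the lines cannot be told apart from filter against plate. The labels do not say whether the libraries of a group came from separate cultures. P-values therefore measure the spread between these libraries, which may be technical. Between 16201084 and 34784862 fragments were counted per library. Levels are given as FPM, the fragment counts scaled to a common depth by edgeR's cpm function with TMM normalization over the 16 libraries. Transcript lengths were not used, so levels are compared between groups for a gene and not between genes. In bulk RNA, fewer cells of a type and less RNA per cell cannot be told apart.

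IGF1 and IGF2 are secreted peptides that promote growth and survival through the IGF1 receptor, a tyrosine kinase. The IGF2 receptor, which also carries mannose 6-phosphate tagged enzymes to lysosomes, takes up IGF2 and removes it from the medium. IGF binding proteins hold IGFs outside the cell, and depending on the protein and its cleavage they limit or prolong IGF action. In the kidney the system is known for its part in growth and repair of the tubule.

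The cell type labels were checked against marker lists. Of 12 epithelial markers, 6 had a mean of at least 1 FPM in NRK-52E cells at pH 7.4 and 4 at pH 6.0. Several defining epithelial genes were at or near 0 in NRK-52E cells: Esrp1 had no count, and Epcam was at 0.022 FPM and Cldn7 at 0 FPM at pH 7.4. Krt7 (36.7 FPM) and Ocln (41.2 FPM) were present in NRK-52E cells at pH 7.4, against 0.46 and 0 FPM in NRK-49F cells. Krt8, with the most fragments of the list, was present in both lines, with 430.4 FPM in NRK-52E and 848 FPM in NRK-49F cells at pH 7.4. Of 11 proximal tubule markers, 3 reached 1 FPM in NRK-52E cells at pH 7.4, while Lrp2 was at 0.63 FPM and Hnf4a and Pax2 at 0. In NRK-49F cells at pH 7.4, 4 of the 11 reached 1 FPM, and the list summed to between 142.5 and 196.2 FPM per library, against between 56.25 and 74.87 FPM in NRK-52E cells. Ggt1, with the most fragments of the list there, was at 111.9 FPM in NRK-49F and 1.53 FPM in NRK-52E cells. At pH 6.0 Ggt1 rose in NRK-49F cells to 413.2 FPM and Aqp1 from 21.81 to 41.59 FPM. In the same cells Anpep fell from 30.06 to 10.88 FPM, Cubn from 2.542 to 1.395 FPM and Slc5a2 from 0.9776 to 0.1047 FPM. Of 13 fibroblast markers, 9 reached 1 FPM in NRK-49F and 7 in NRK-52E cells at pH 7.4. Among them, Pdgfra (391.9 FPM), Col1a1 (6205 FPM) and Twist1 (94.7 FPM) separated NRK-49F from NRK-52E cells (0.29, 23.6 and 1.41 FPM) at pH 7.4. Thy1 had no count in either line, and Col3a1 was higher in NRK-52E (6221 FPM) than in NRK-49F cells (458 FPM). Fbln1 (78.5 and 79.8 FPM) and Col5a1 (368.7 and 341 FPM) were at similar levels in NRK-52E and NRK-49F cells, and Dcn was below 1 FPM in both. The lines thus differ in several markers of their labelled type but lack others, and they are called by their names here. Of 5 leukocyte markers, Cd68 was at 81.2 FPM in NRK-49F cells at pH 7.4 and rose to 242.7 FPM at pH 6.0, while in NRK-52E cells it was at 1.72 and 2.38 FPM. Csf1r was at 1.08 FPM in NRK-52E cells at pH 6.0, Cd3e and Itgam were below 1 FPM in every group, and Ptprc had no count. Of the 4 endothelial markers in the table, Vwf fell in NRK-49F cells from 7.01 to 2.78 FPM, Cdh5 and Tie1 were below 1 FPM in every group, and Kdr had no count. Markers named above also moved with pH. In NRK-52E cells Col3a1 fell to 2630 FPM, Ocln to 9.67 FPM and Krt7 to 15.51 FPM, the proximal tubule marker Anpep fell from 28.5 to 1.25 FPM, and the epithelial marker Tjp3 rose from 17.3 to 43.8 FPM. In NRK-49F cells Krt8 fell to 206 FPM and Col3a1 to 53.9 FPM, while Col1a1 rose to 8288 FPM and Fbln1 to 131.5 FPM. Fbln1 also rose in NRK-52E cells, to 102.9 FPM. The part of these markers in the changes below was not tested.

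For each comparison, a gene was called when its false discovery rate (FDR) was below 0.01 in both edgeR and DESeq2. At pH 6.0 against pH 7.4, 8 of the 10 members passed the filter on low counts in NRK-52E cells. Of these, 5 were called lower at pH 6.0 (Igf1r, Igf2r, Igfbp2, Igfbp3 and Igfbp5) and 0 higher, by edgeR and DESeq2, while 3 were not called. Igfbp5 passed the filter through its pH 7.4 level alone. Igfbp3 had 3 of its 4 libraries at pH 6.0 above the cutoff, too few to pass without its pH 7.4 level. Over all 13735 genes tested, 28.5% were called lower and 28.2% higher. Igf2 did not pass the filter, and it was called higher with DESeq2 alone, by edgeR and DESeq2 without a filter, and with the filter when N1, N3 or N6 was left out, so the count of 0 depends on the filter and on single libraries. With a library left out, Igf2 passed the filter only through its pH 6.0 level. At an unadjusted edgeR p under 0.05 the number higher among the 8 was 0. In NRK-49F cells 7 members passed the filter, 3 were called lower (Igf1r, Igfbp6 and Igfbp7), 0 higher and 4 were not called, beside 19.4% of 13339 genes called lower and 18.4% called higher. There, 0 members were higher by DESeq2 alone or at an unadjusted edgeR p under 0.05. Between the lines at pH 7.4, 8 members were tested and 7 called, 4 higher in NRK-52E cells and 3 lower, with Igfbp3 among the 4 although NRK-49F cells had no count of it, where 33.3% of 14026 genes were called higher and 33.3% lower. At pH 6.0, 7 were tested and 5 called, 2 higher and 3 lower in NRK-52E cells, with Igfbp5 among the 3 although it passed the filter through its NRK-49F level alone, where 28.6% of 13796 genes were called higher and 31.3% lower. The pH effect itself differed between the lines for 3 of the 7 members that passed the filter and had counts in both lines, 2 with a higher value in NRK-52E and 1 with a lower one, where 19.3% of 14679 genes were called higher and 17.5% lower. Since such shares of all genes changed, these counts say nothing particular about the set.

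**Figure D1:**
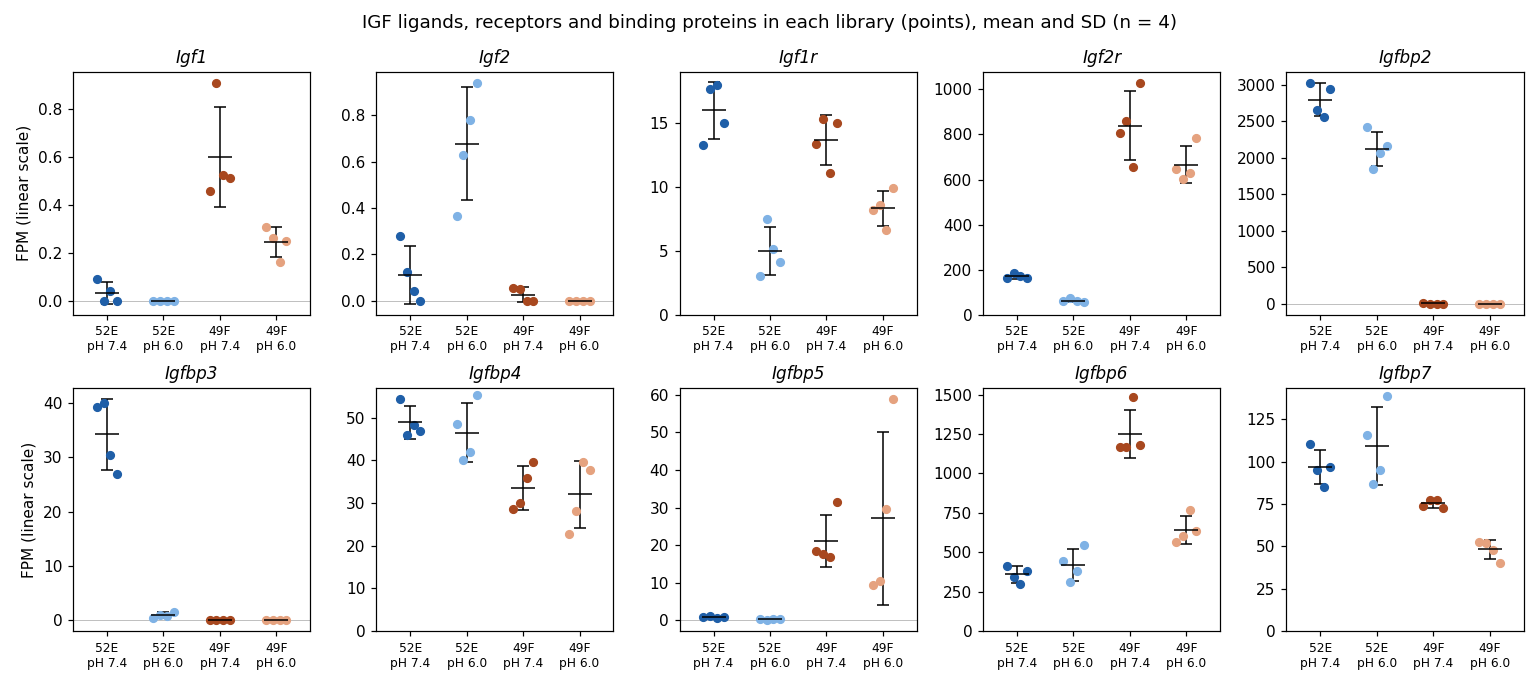
FPM of each of the 10 genes on a linear scale, with 1 point per library and a bar for the mean and SD of the 4 libraries of each group (52E, NRK-52E; 49F, NRK-49F). Igfbp3 lies between 26.99 and 40.1 FPM in NRK-52E cells at pH 7.4, at most 1.55 FPM at pH 6.0 and at 0 in NRK-49F cells, while Igfbp2 in NRK-49F cells (at most 9.09 FPM) is too low to see on its axis.

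The ligands were close to the limit of detection in both lines. Igf1, on chromosome 7, had 2, 0, 1 and 0 counts in the NRK-52E libraries N1, N2, N5 and N6 at pH 7.4 and no count at pH 6.0. NRK-49F cells held 0.46, 0.91, 0.53 and 0.51 FPM in N9, N10, N13 and N14 at pH 7.4, and 0.31, 0.27, 0.16 and 0.25 FPM in N11, N12, N15 and N16 at pH 6.0. All 4 fibroblast libraries at pH 7.4 lay above all 4 at pH 6.0 (exact two-sided permutation p = 0.0286, the smallest that 4 against 4 can give). These are 8 to 18 and 4 to 8 counts per library, Igf1 did not pass the filter of edgeR, and the adjusted p of DESeq2 was 0.057, so no change was called. Between the lines, Igf1 was called lower in NRK-52E cells without a filter (edgeR adjusted p = 0.000218 at pH 7.4 and 0.00202 at pH 6.0). The order of the means was NRK-49F at pH 7.4, NRK-49F at pH 6.0, NRK-52E at pH 7.4 and NRK-52E at pH 6.0, and the last pair overlapped.

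Igf2, on chromosome 1, had 6, 3, 1 and 0 counts in N1, N2, N5 and N6, and 6, 14, 19 and 20 counts in N3, N4, N7 and N8. In FPM this was 0.28, 0.12, 0.041 and 0 at pH 7.4 and 0.37, 0.63, 0.78 and 0.94 at pH 6.0, so the acidic libraries of NRK-52E cells were all higher (exact two-sided permutation p = 0.0286). DESeq2 gave an adjusted p of 0.0016 with a log2 fold change of 2.60, but Igf2 did not pass the filter of edgeR and was not called. Without a filter it was called, with an edgeR log2 fold change of 2.53 ± 0.67 (SE) and an adjusted p of 0.00493. With the filter it was called when N1, N3 or N6 was left out (log2 fold changes of 3.44, 2.74 and 2.17), and not when N2 or N5 was left out (edgeR adjusted p = 0.0119 and 0.0157). It passed there through its pH 6.0 level alone, so these calls add little to the levels. NRK-49F cells had a total of 2 counts at pH 7.4 and 0 at pH 6.0, and with a floor of 3 counts per library NRK-52E cells were at least 5.19-fold higher at pH 6.0. The options printed for featureCounts hold no strand setting, and its default counts both strands, so reads from an antisense gene could not be told apart.

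Igf1r, on chromosome 1, encodes the receptor that signals for both IGFs. In NRK-52E cells it was at 13.3, 17.7, 17.99 and 14.99 FPM in N1, N2, N5 and N6 and at 3.06, 7.46, 5.16 and 4.14 FPM in N3, N4, N7 and N8. Every acidic library lay below every control library, and the mean at pH 6.0 was 31.0% of that at pH 7.4, with a log2 fold change of -1.71 ± 0.24 (SE) and an adjusted p of 0.000103 in edgeR. Within the number 21, with 2 libraries against 2, it was -1.58 and not called (edgeR adjusted p = 0.0137). In NRK-49F cells it was at 13.4, 15.3, 11.1 and 14.98 FPM in N9, N10, N13 and N14 and at 8.19, 8.56, 6.60 and 9.95 FPM in N11, N12, N15 and N16. Again the groups did not overlap, and the mean at pH 6.0 was 60.8% of that at pH 7.4 (log2 fold change -0.73 ± 0.17 SE, edgeR adjusted p = 0.00291). Without N10 or without N15 this call was lost, with log2 fold changes of -0.67 and -0.62 and edgeR adjusted p-values of 0.0112 and 0.0113, and it was not called within the number 21 (-0.68, edgeR adjusted p = 0.103). Whether the fall was larger in NRK-52E cells was tested as an interaction, which gave -0.98 ± 0.30 (SE) on the log2 scale with an adjusted p of 0.0114 in edgeR and 0.00343 in DESeq2, and was not called. It was called without N1, N4 or N15 in turn (edgeR adjusted p = 0.00924, 0.0011 and 0.00827) and with library totals (-1.21, edgeR adjusted p = 0.00497). The order of the means was NRK-52E at pH 7.4 (15.98 FPM), NRK-49F at pH 7.4 (13.7 FPM), NRK-49F at pH 6.0 (8.32 FPM) and NRK-52E at pH 6.0 (4.96 FPM). The ranges of the first pair and of the last pair overlapped, and neither difference between the lines was called. That at pH 7.4 was called with library totals (0.61, edgeR adjusted p = 0.00413), and that at pH 6.0 without N4 (-0.998, edgeR adjusted p = 0.00433) and in a fit of all 16 libraries (-0.76, edgeR adjusted p = 0.00428).

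Igf2r, on chromosome 1, encodes the receptor that clears IGF2. In NRK-52E cells it fell from 161, 183, 173 and 163 FPM in N1, N2, N5 and N6 to 61.4, 73.7, 60.8 and 56.9 FPM in N3, N4, N7 and N8. The groups stood far apart, with a mean at pH 6.0 of 37.2% of that at pH 7.4 (log2 fold change -1.45 ± 0.10 SE, edgeR adjusted p = 4.98e-07). In NRK-49F cells it was at 807, 859, 657 and 1029 FPM in N9, N10, N13 and N14 and at 645, 601, 630 and 785 FPM in N11, N12, N15 and N16. N13 lay within the acidic range, and the difference was not called (log2 fold change -0.35 ± 0.13 SE, edgeR adjusted p = 0.0452). It was called without N13, at -0.44 with an edgeR adjusted p of 0.0079, and within the number 20 (-0.42, edgeR adjusted p = 0.00398). The pH effect was lower in NRK-52E than in NRK-49F cells by a called interaction of -1.11 ± 0.18 (SE) on the log2 scale (edgeR adjusted p = 5.09e-05), which was not called within the number 21 (-1.11, edgeR adjusted p = 0.0194). NRK-49F cells held the higher level at both pH values, 838 against 170.1 FPM at pH 7.4 and 665 against 63.2 FPM at pH 6.0, and these line differences were called.

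**Figure D2:**
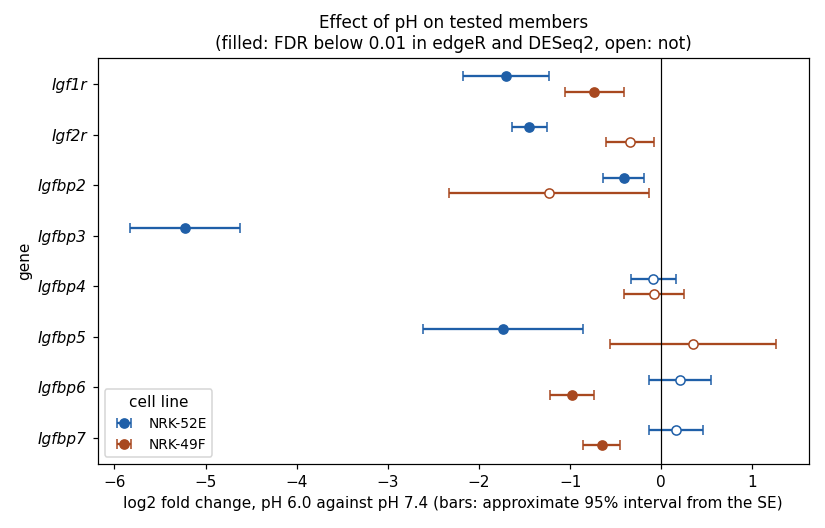
Log2 fold change at pH 6.0 against pH 7.4 of the members that passed the filter on low counts, in NRK-52E (blue) and NRK-49F (brown) cells, with an approximate 95% interval from the SE. Filled points were called by edgeR and DESeq2 and all of them lie below 0, from -5.23 for Igfbp3 to -0.42 for Igfbp2, both in NRK-52E cells.

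Igfbp2, on chromosome 9, encodes a binding protein with a preference for IGF2. In NRK-52E cells it was at 3025, 2660, 2555 and 2944 FPM in N1, N2, N5 and N6 and at 2418, 1848, 2059 and 2160 FPM in N3, N4, N7 and N8. The ranges did not overlap, but the gap was small, with a mean at pH 6.0 of 75.9% of that at pH 7.4 (log2 fold change -0.42 ± 0.11 SE, edgeR adjusted p = 0.00765). This call was near the threshold: it was lost without N1, N2, N4, N6 or N7 in turn (adjusted p up to 0.0257), with the second number of the library names as a covariate (0.0126), within either value of that number and in a fit of all 16 libraries (0.253). The log2 fold change stayed between -0.49 and -0.37 over the 8 fits that left out a library. With library totals it was -0.63 and called (edgeR adjusted p = 0.000129), where the median over all genes tested was -0.21. NRK-49F cells held very little, 9.09, 1.16, 2.24 and 1.82 FPM in N9, N10, N13 and N14 and 1.11, 0.99, 2.34 and 1.50 FPM in N11, N12, N15 and N16. N9 stood apart from the other fibroblast libraries, the groups overlapped, and no change was called (log2 fold change -1.23 ± 0.56 SE, edgeR adjusted p = 0.0815). Without N9 the log2 fold change was -0.22. Both line differences were called, with log2 fold changes of 9.73 ± 0.54 (SE) at pH 7.4 and 10.41 ± 0.28 (SE) at pH 6.0 in favour of NRK-52E cells. Without N9 the first was 10.74, and without another library between 9.43 and 9.76.

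For N9, markers of the other line were read in the same libraries. The 12 epithelial markers summed to 826 FPM in N9 and to 787, 951 and 844 FPM in N10, N13 and N14, nearly all from Krt8 (821 FPM in N9). A set of 47 genes with a mean of at least 100 FPM in NRK-52E and at most 5 FPM in NRK-49F cells, chosen after the values were seen, summed to 106 FPM in N9 and to 84.5, 75.3 and 86.9 FPM in N10, N13 and N14. Igfbp2 meets these limits itself but was left out of the set, so the sums do not hold it. These sums were 0.95% of the NRK-52E level in N9 and 0.75%, 0.67% and 0.77% in the others, while Igfbp2 was at 0.37% in N9 and 0.047%, 0.091% and 0.074% in the others. Wfdc1, Sohlh2 and Shfl, the genes most alike Igfbp2 over the 16 libraries, N9 included, were at 2.001, 0.80 and 0.34 FPM in N9 (35, 14 and 6 counts) and at most at 0.36, 0.15 and 0.16 FPM in N10, N13 and N14. Krt7 was at 0.80 FPM in N9 and 0.35, 0.66 and 0.040 FPM in the others, while Ocln and Cdh1 had no count in these 4 libraries. Epcam and Krt18 had 2 counts each in N9 and 0 in N10, N13 and N14. Of the 12 epithelial markers, 4 had no count in N9, and 8, 8 and 6 had none in N10, N13 and N14. What set Igfbp2 apart in N9 was not tested.

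Igfbp3, on chromosome 14, encodes the main IGF carrier of the circulation. It was at 39.4, 40.1, 30.5 and 26.99 FPM in the NRK-52E libraries N1, N2, N5 and N6, from 567 to 979 counts. At pH 6.0 it was at 0.43, 0.99, 0.66 and 1.55 FPM in N3, N4, N7 and N8, from 7 to 33 counts. The mean at pH 6.0 was 2.65% of that at pH 7.4, with a log2 fold change of -5.23 ± 0.31 (SE) and an edgeR adjusted p of 2.76e-07. At pH 6.0, 3 of the 4 libraries were above the cutoff of the filter, too few to pass alone. Igfbp3 thus passed through its pH 7.4 level, and this call adds little to the levels. Leaving out a library in turn gave log2 fold changes from -5.61 to -5.04, and within the numbers 21 and 22 the values were -5.78 and -4.73, all called. In NRK-49F cells Igfbp3 had 0 counts in all 8 libraries. With a floor of 3 counts per library, NRK-52E cells were at least 214-fold higher at pH 7.4 and at least 6.93-fold higher at pH 6.0. In the comparison of the lines Igfbp3 passed the filter through its NRK-52E level alone, at pH 7.4, so that call adds nothing to the levels. Because a line without counts has no pH effect to compare, no interaction is given for Igfbp3.

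Igfbp4, on chromosome 10, encodes a binding protein known mainly as an inhibitor of IGF action. It was at 54.4, 46.0, 48.3 and 46.8 FPM in N1, N2, N5 and N6 and at 48.6, 40.1, 42.0 and 55.3 FPM in N3, N4, N7 and N8. The ranges overlapped, and no change was called (log2 fold change -0.09, approximate 95% interval -0.33 to 0.16), nor with library totals (-0.30, edgeR adjusted p = 0.035). Among NRK-49F libraries it ranged from 28.6 to 39.5 FPM at pH 7.4 and from 22.9 to 39.6 FPM at pH 6.0, with a log2 fold change of -0.08 (interval -0.41 to 0.25). NRK-52E cells held the higher level, with a called log2 difference of 0.63 ± 0.11 (SE) at pH 7.4 (edgeR adjusted p = 0.000336). At pH 6.0 the difference of 0.52 ± 0.18 (SE) was not called in edgeR (adjusted p = 0.0207), although the ranges of the lines did not overlap and DESeq2 gave 0.0069. It was called with library totals (0.67, edgeR adjusted p = 0.00392) and in a fit of all 16 libraries (0.52, edgeR adjusted p = 0.0066). Within the number 21 it was smaller and not called (0.19, edgeR adjusted p = 0.371). At pH 6.0 the NRK-49F mean was 25.48 FPM with the number 20 and 38.6 FPM with 21. The difference at pH 7.4 was not called within the number 21 (0.48, edgeR adjusted p = 0.0346).

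Igfbp5, on chromosome 9, encodes a binding protein that also attaches to the extracellular matrix. NRK-52E cells had 20, 25, 17 and 17 counts in N1, N2, N5 and N6 and 5, 1, 10 and 6 counts in N3, N4, N7 and N8. Means of 0.87 FPM under control and 0.26 FPM under acidic medium resulted (log2 fold change -1.73 ± 0.45 SE, edgeR adjusted p = 0.00516), a call on low counts that adds little to the levels, since no library at pH 6.0 was above the cutoff of the filter. It was lost without N1, N2, N3, N4 or N6 in turn, with log2 fold changes from -2.07 to -1.39 over the libraries left out, in a fit of all 16 libraries (edgeR adjusted p = 0.0505), and within the numbers 21 (-2.62, edgeR adjusted p = 0.0214) and 22 (-1.13, edgeR adjusted p = 0.105). In NRK-49F cells it was at 18.5, 17.5, 16.9 and 31.5 FPM in N9, N10, N13 and N14 and at 9.43, 10.54, 29.5 and 58.9 FPM in N11, N12, N15 and N16. The acidic libraries lay on both sides of the control libraries, and no change was called (log2 fold change 0.35 ± 0.47 SE, edgeR adjusted p = 0.552). The library names carry a second number, of unknown meaning, and Igfbp5 split by it. Among libraries with the number 20 the mean went from 18.03 to 9.99 FPM at pH 6.0 (log2 fold change -0.85, called, edgeR adjusted p = 0.000762). Among those with 21 it went from 24.2 to 44.2 FPM (log2 fold change 0.84, not called, edgeR adjusted p = 0.0861). Each of these fits had 2 libraries against 2. Without N16 the log2 fold change over the rest was -0.36. The difference between the lines was called at pH 7.4, with a mean in NRK-52E cells of 4.11% of that in NRK-49F cells. At pH 6.0 it was called too, but Igfbp5 passed the filter there through its NRK-49F level alone, so that call adds nothing to the levels.

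**Figure D3:**
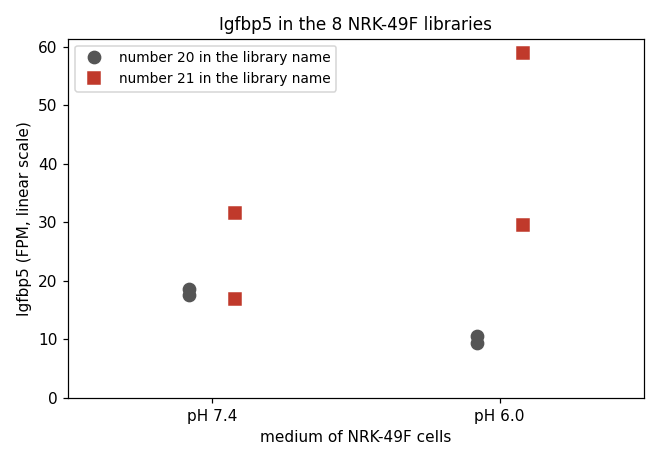
Igfbp5 in the 8 NRK-49F libraries on a linear FPM scale, with 1 point per library, by pH of the medium and by the second number in the library name (circles 20, squares 21). Both libraries with 20 at pH 6.0 (9.43 and 10.54 FPM) lie below all libraries at pH 7.4, while those with 21 lie at 29.5 and 58.9 FPM.

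Igfbp6, on chromosome 7, encodes a binding protein with a strong preference for IGF2. In NRK-49F cells it was at 1170, 1166, 1482 and 1182 FPM in N9, N10, N13 and N14 and at 567, 601, 771 and 635 FPM in N11, N12, N15 and N16. All acidic libraries were lower, with a mean of 51.5% of that at pH 7.4 (log2 fold change -0.98 ± 0.12 SE, edgeR adjusted p = 4.32e-05), and the fall was called within both numbers. In NRK-52E cells it was at 415, 344, 296 and 383 FPM in N1, N2, N5 and N6 and at 444, 309, 380.1 and 543 FPM in N3, N4, N7 and N8. These ranges overlapped and no change was called (log2 fold change 0.21 ± 0.17 SE, edgeR adjusted p = 0.302). Scaling by library totals shifted the median over all genes tested in NRK-52E cells to -0.21 on the log2 scale, and the value for Igfbp6 was then -0.01. The interaction was called, at 1.16 ± 0.22 (SE) on the log2 scale (edgeR adjusted p = 0.000275), but not within the number 21 (0.90, edgeR adjusted p = 0.046). NRK-49F cells held the higher level at both pH values, a call that at pH 6.0 was lost without N3, N4, N7, N15 or N16 in turn and with library totals. The log2 difference lay between -0.65 and -0.49 in the fits that lost it.

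Igfbp7, on chromosome 14, encodes a related secreted protein that binds IGFs weakly. Its level in NRK-49F cells was 73.7, 77.5, 77.4 and 72.4 FPM in N9, N10, N13 and N14 and 52.6, 52.2, 48.1 and 40.3 FPM in N11, N12, N15 and N16. The groups did not overlap, and the mean at pH 6.0 was 64.2% of that at pH 7.4 (log2 fold change -0.66 ± 0.11 SE, edgeR adjusted p = 0.000257). In NRK-52E cells it ranged from 85.2 to 110.1 FPM at pH 7.4 and from 86.8 to 138 FPM at pH 6.0, with a log2 fold change of 0.16 ± 0.15 (SE) that was not called and was -0.06 with library totals. The interaction of 0.80 ± 0.18 (SE) on the log2 scale was called (edgeR adjusted p = 0.00164), but not without N3 (0.66, adjusted p = 0.0134), with library totals (0.55, adjusted p = 0.014) or within the number 21 (0.73, adjusted p = 0.0432). NRK-52E cells held the higher level, with called log2 differences of 0.44 ± 0.08 (SE) at pH 7.4 and 1.16 ± 0.16 (SE) at pH 6.0. The first was not called within the number 21 (0.52, edgeR adjusted p = 0.0157) or in a fit of all 16 libraries (0.36, edgeR adjusted p = 0.0191).

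The order of the 4 means differed between members. For Igf2r it was NRK-49F at pH 7.4, NRK-49F at pH 6.0, NRK-52E at pH 7.4 and NRK-52E at pH 6.0, and neighbours overlapped in the first pair only. For Igfbp6 it was NRK-49F at pH 7.4, NRK-49F at pH 6.0, NRK-52E at pH 6.0 and NRK-52E at pH 7.4, with overlap in the last pair only. Igfbp5 was led by NRK-49F at pH 6.0 and pH 7.4, which overlapped, followed by NRK-52E at pH 7.4 and then at pH 6.0. Igfbp2, Igfbp3 and Igfbp4 were led by NRK-52E at pH 7.4, followed by NRK-52E at pH 6.0, NRK-49F at pH 7.4 and NRK-49F at pH 6.0. The fibroblast groups overlapped for Igfbp2 and Igfbp4, as did the epithelial groups for Igfbp4, and Igfbp3 was at 0 in both fibroblast groups. Igfbp7 was led by NRK-52E at pH 6.0 and pH 7.4, which overlapped, followed by NRK-49F at pH 7.4 and at pH 6.0. Igf2 was led by NRK-52E at pH 6.0, and the other 3 groups followed with overlap, NRK-52E at pH 7.4 before NRK-49F at pH 7.4 and pH 6.0. Over both pH values together, the ranges of the lines overlapped for Igf2 and Igf1r and not for the other 8 members. The share of all genes with such separation was not computed. Between the lines at pH 7.4, 33.3% of all genes tested were called higher and 33.3% lower, so nothing particular to the set is drawn from this. Igfbp2 and Igfbp5 are neighbouring genes in the RefSeq annotation of GRCr8, and they were high in opposite lines.

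The genes most alike each member over the 16 libraries, by Pearson's r of log2(FPM + 1) among 9827 genes that carry a name and whose mean reached 10 FPM in any group, are given as a description, since the libraries share their groups. None are given for Igf1 and Igf2. Igf1r was closest to Adam9 (r = 0.971), Zfp646 (0.961) and Zmat1 (0.959), and Igf2r to Ece1 (0.997), Col6a2 (0.996) and Ephb6 (0.994). Igfbp3 was closest to Rgs22 (0.996), Slc1a7 (0.994) and Chst4 (0.992). In NRK-52E cells Rgs22 went from 44.2 to 0.73 FPM and Chst4 from 37.8 to 1.17 FPM in the means at pH 7.4 and 6.0. Igfbp2 was closest to Wfdc1, Shfl and Sohlh2 (0.996 each), Igfbp5 to Rdh10 (0.989), Mmp10 (0.983) and Trpm3 (0.983), and Igfbp6 to Arpc1b (0.987), Metrnl (0.983) and Serpinb1a (0.981). Lower values were found for Igfbp7, with Calm2.1 (0.965), Hrct1 (0.961) and L3hypdh (0.960), and for Igfbp4, with Tsc22d1 (0.917), Cenpt (0.908) and Ca11 (0.902).

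Other genes of the pathway were read from 6 lists with 72 genes, of which 64 were in the table and the others were not analysed here. In NRK-52E cells 50 were tested, 9 were called higher and 17 lower at pH 6.0, and 24 were not called, with a median log2 fold change of -0.28 beside 0.00 for all genes tested. In NRK-49F cells 52 were tested, 11 called higher and 11 lower, with a median of 0.06. The counts of these lists are to be read beside the shares of all genes called, 28.2% higher and 28.5% lower in NRK-52E cells and 18.4% higher and 19.4% lower in NRK-49F cells, and nothing particular to a list is drawn from them. With library totals the NRK-52E counts were 7 higher and 20 lower, and the median was -0.48 beside -0.21 for all genes.

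The list of proteins that bind IGFBPs or share their fold had 7 of 10 tested genes lower, beside 28.5% of all genes, and 0 higher, beside 28.2%, in NRK-52E cells (edgeR and DESeq2; 1 higher at an unadjusted edgeR p under 0.05 and 0 by DESeq2 alone), and 5 of 12 lower and 1 higher in NRK-49F cells. Ccn5, a matricellular protein, fell in NRK-52E cells from 17.3 to 1.01 FPM (log2 fold change -4.11 ± 0.36 SE) and in NRK-49F cells from 219 to 33.2 FPM (-2.74 ± 0.19 SE). Ccn2, connective tissue growth factor, fell in NRK-49F cells from 1314 to 71.4 FPM (-4.21 ± 0.36 SE) and Ccn3 from 499.7 to 34.1 FPM (-3.88 ± 0.45 SE). Fn1, fibronectin, fell in NRK-52E cells from 81.2 to 20 FPM (-2.04 ± 0.21 SE).

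Among the receptor substrates and adaptors, 3 of 10 tested genes were called higher and 3 lower in NRK-52E cells, and 1 of 9 higher and 3 lower in NRK-49F cells. Irs1, which links the receptor to PI3K, fell in NRK-52E cells from 24.95 to 5.29 FPM (-2.26 ± 0.23 SE). Of the 21 genes of the PI3K, AKT, FOXO and mTOR list, 5 were called higher and 4 lower in NRK-52E cells, and 7 higher and 1 lower in NRK-49F cells. The catalytic subunit Pik3ca rose in NRK-52E cells from 76.7 to 195 FPM (1.33 ± 0.10 SE) and Gsk3b from 29.4 to 60.7 FPM (1.02 ± 0.24 SE). In NRK-49F cells the kinase Pdpk1 rose from 5.44 to 19.7 FPM (1.83 ± 0.22 SE) and Rictor, a part of mTOR complex 2, from 4.12 to 9.62 FPM (1.21 ± 0.28 SE).

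Among the IGFBP proteases and their inhibitors, 1 of 3 tested genes was higher and 1 lower in NRK-52E cells, and 1 of 5 higher and 1 lower in NRK-49F cells. Stc2, stanniocalcin 2, an inhibitor of IGFBP proteases, rose in NRK-52E cells from 0.43 to 2.34 FPM (2.41 ± 0.26 SE). Under control medium it had 8 to 11 counts per library there. It passed the filter through its level under acidic medium alone, so this call adds little to the levels. The gene counted as higher in NRK-52E cells for this list is Stc2. Of the IGF2 mRNA-binding proteins, 1 of 3 was lower in NRK-52E cells and 1 of 2 higher in NRK-49F cells, where Igf2bp2 rose from 46.6 to 108 FPM (1.20 ± 0.13 SE). Of the related insulin family genes, 3 were tested in each line, and 1 was called lower in both, with 0 higher by edgeR and DESeq2. At an unadjusted edgeR p under 0.05, 0 were higher in NRK-52E and 1 in NRK-49F cells, and by DESeq2 alone 1 and 0. Igfbp1, the neighbour of Igfbp3 in the RefSeq annotation, had no count in any library.

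Promoter sequences of all 10 members were found in the RefSeq table of GRCr8, which holds 33469 promoters. The 250 bases before each promoter's start site were searched on both strands for short motifs, which were chosen after the sequences had been read. These windows end where the annotated gene begins for Igf2r and for Igfbp2 to Igfbp6, run across its beginning for Igf1r and Igfbp7, and lie inside the annotated gene for Igf1 and Igf2. Igf2 has 2 windows. The E-box CACGTG was present in 5.59% of all promoters in the table. The TATA box TATAAA was present in 12.9%, and its first letters TATA alone, which it contains, in 36.2%. The GC box GGGCGG was found in 30.5% of the promoters. The forkhead motif TGTTTAC was found in 3.21%. The antioxidant response motif TGACNNNGC was found in 10.1%. The stress response motif TGATGNAA was found in 3.40%. CACGTG was found in Igf1r (1 match), Igf2r (2) and Igfbp2 (1). The letters TATA were found in Igfbp3 and Igfbp4, in the latter as part of the full TATA box. The GC box was found in 1 window of Igf2, in Igf1r, Igf2r, Igfbp2 and Igfbp7, and the forkhead motif in Igfbp6. The antioxidant and stress response motifs were in none of the windows. A match is a description of letters and not a binding site. Because the motifs were chosen after the sequences had been read, no link between matches and pH changes is drawn. The sequences of Igf2r (chr1:50526628-50526877, plus strand), Igfbp2 (chr9:81864561-81864810, plus strand) and Igfbp3 (chr14:86277945-86278194, minus strand) are given for the members that were called lower in NRK-52E cells, whose window lies outside the annotated gene and holds CACGTG or TATA. Igfbp5 was also called lower and its window lies outside the gene, but it held none of the motifs. Letters run from 5′ to 3′, with CACGTG in capitals for Igf2r and Igfbp2 and TATA, with overlapping matches, for Igfbp3.
Igf2r: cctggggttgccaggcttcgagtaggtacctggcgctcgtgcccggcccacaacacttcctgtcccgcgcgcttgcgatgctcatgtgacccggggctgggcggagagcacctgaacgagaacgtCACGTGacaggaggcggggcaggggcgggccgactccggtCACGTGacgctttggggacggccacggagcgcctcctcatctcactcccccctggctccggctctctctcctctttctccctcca
Igfbp2: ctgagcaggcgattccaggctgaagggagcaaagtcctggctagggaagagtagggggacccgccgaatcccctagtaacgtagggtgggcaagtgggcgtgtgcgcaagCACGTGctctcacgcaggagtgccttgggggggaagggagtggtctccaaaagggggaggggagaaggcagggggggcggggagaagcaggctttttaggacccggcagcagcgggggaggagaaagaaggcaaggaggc
Igfbp3: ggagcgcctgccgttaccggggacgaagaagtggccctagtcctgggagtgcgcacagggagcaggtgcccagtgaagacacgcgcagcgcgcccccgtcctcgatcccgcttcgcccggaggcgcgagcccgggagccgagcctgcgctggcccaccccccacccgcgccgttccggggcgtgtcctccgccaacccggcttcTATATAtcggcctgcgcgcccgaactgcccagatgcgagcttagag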

How the data were processed

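The authors deposited raw counts per gene for the 16 libraries, without normalization. Per the study's methods, read pairs were mapped to the rat genome rn6 with tophat2, while the submitters' processing notes name HISAT2 2.1.0, so the aligner is uncertain. Fragments were counted over exons with featureCounts, multi-mapping fragments included. Groups were taken from the sample labels, and all libraries were used. Genes that passed the filter were tested in R 4.3.3 with edgeR 4.0.16 (TMM, filterByExpr, quasi-likelihood F test), with Benjamini-Hochberg adjustment over the same genes. DESeq2 1.42.0 (Wald test) was not limited to these genes, and it gave adjusted p-values for members that did not pass the filter. Fold changes and adjusted p-values are those of edgeR unless DESeq2 is named, and the SE was obtained as the size of the log2 fold change over the root of F. For single levels, log2(FPM + 1) was compared with a two-sided exact permutation test. No pair of libraries in a group matched within sampling noise (smallest chi-square per degree of freedom 6.12).

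Each comparison used its own 8 libraries, and the interaction all 16. Alternatives were DESeq2 size factors or library totals for scaling, no filter or at least 1 CPM in at least 4 libraries, each tool alone, an FDR below 0.05, each library left out in turn, the second number in the library names as a covariate or held fixed, all 16 libraries in a single fit, and pseudocounts of 0.1 and 5, which cannot change an exact p under 0.05, since with 4 against 4 that needs separated groups. The members, gene lists and marker lists were chosen with earlier results of these data known. Genes named are the members, the 3 genes most like each but Igf1 and Igf2, and, over the pathway lists, the 3 called genes with the largest rise and fall in each line. Marker genes, Igfbp1 and the promoter motifs are named beside these. Floors of 3 counts and intervals cover counting error only or are approximate. Coordinates of the RefSeq promoters are those of GRCr8, not of rn6.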

Additional observations from a re-analysis of the deposited data

Results flagged for a closer look

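In 4 of the 36 groups of 4 libraries examined, the highest library stood far from the others. All 4 were NRK-49F libraries at pH 7.4, and a different library stood apart each time. About 1.8 would be expected for independent groups with normal spread. These groups share libraries and some hold few counts, so nothing is drawn from that number. Igf1 was at 0.91 FPM in N10, from 18 counts. Igfbp2 was at 9.09 FPM in N9, against at most 2.24 FPM in the others of that group, and the 47 genes high in NRK-52E cells summed to 106 FPM in N9 against at most 86.9 FPM in the others. Igfbp5 was at 31.5 FPM in N14, which carries the number 21 in its name, as does N13 at 16.9 FPM. Igfbp6 was at 1482 FPM in N13, against at most 1182 FPM in the others. What set these libraries apart was not tested.

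The pH effect differed between the lines by the interaction test for 3 members. The difference, NRK-52E minus NRK-49F on the log2 scale, was -1.11 for Igf2r, 1.16 for Igfbp6 and 0.796 for Igfbp7. Igf2r fell in NRK-52E cells and was not called in NRK-49F cells, while Igfbp6 and Igfbp7 fell in NRK-49F cells and were not called in NRK-52E cells.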

How the results depend on the processing

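Among the counts of called members, the number at pH 7.4 between the lines was 7 whichever library was left out, 8 without a filter, with DESeq2 alone or with library totals, 6 with all 16 libraries in a single fit and 5 within the number 21. In NRK-52E cells the 5 members called for pH became 6 without a filter, Igf2 being added, 3 with all 16 libraries in a single fit, 2 within the number 21 and 3 within the number 22, and 3 to 5 with a library left out, with Igf2, called higher, among them without N1, N3 or N6. In NRK-49F cells 3 became 5 within the number 20, 2 within the number 21 and 2 to 4 with a library left out. Between the lines at pH 6.0, 5 became 8 without a filter, 8 with all 16 libraries and 9 with DESeq2 alone, and 4 to 7 with a library left out. For the interaction, 3 became 0 within the number 21, 5 with DESeq2 alone, which counts Igfbp3 although NRK-49F cells had none, and 2 to 4 with a library left out. Fits within a number have 2 libraries against 2, and the smaller number of libraries is part of their construction. The cause of the other changes, and of the larger count within the number 20, was not tested.

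Signs changed for values that were not called in the fit of the report. Igfbp4 in NRK-52E cells was 0.0163 within the number 22. Igfbp6 in NRK-52E cells was -0.00737 with library totals and -0.0505 within the number 21, and Igfbp7 was -0.0585 and -0.0604. In NRK-49F cells Igfbp4 was 0.0143 within the number 21 and -0.181 to 0.0556 with a library left out. Igfbp5 there was -0.85 within the number 20, a called fall, and -0.36 to 0.63 with a library left out. The interaction of Igfbp2 was -0.37 within the number 21 and -0.27 to 1.07 with a library left out, and that of Igfbp4 was -0.16 to 0.0846. Among single fold changes, 35 were no longer called and 17 became called under an alternative, with the same sign. Between the lines at pH 7.4, Igfbp4 and Igfbp7 were not called within the number 21, and Igfbp7 not with all 16 libraries. Without N15, Igfbp5 between the lines at pH 6.0 had no adjusted p in DESeq2. The interaction of Igfbp3 is not given, since NRK-49F cells had no count. Single libraries could not be paired, since the groups share no replicate numbers, and the second number in the names was fitted as a covariate instead. Depth limits Igf1, Igf2 and, in NRK-52E cells, Igfbp5, which had at most 25 counts in a library.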
